A study of Mus musculus with 15 samples.

Results

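The core circadian clock genes described here are Arntl, Clock, Npas2, Per1, Per2, Per3, Cry1, Cry2, Nr1d1 and Nr1d2, which are 10 of the 39179 genes listed for each mouse. They are a list by name, the transcription factors and repressors that form the feedback loops of the mammalian clock, and the list was drawn up with earlier results of these data known. RNA-seq of quadriceps muscle was made from C57BL/6 mice of 4 groups, with 1 library per mouse. These were 4 Mrps5 wild-type and 4 Mrps5 V338Y mutant mice at 3 mo, and 3 Mrps5 wild-type and 4 Mrps5 V338Y mutant mice at 19 mo. The V338Y mice are homozygous for an amino acid exchange in a protein of the mitochondrial ribosome and carry it in every tissue, so that muscle is not singled out by the model. The comparisons ask how transcripts differ with age within each genotype and with genotype within each age. The hour at which the muscles were taken is not given in the sources used here.

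In the clock, the product of Arntl (BMAL1) pairs with CLOCK or NPAS2, binds E-box sequences and activates the Per, Cry and Nr1d genes. PER and CRY proteins return to the nucleus and inhibit that pair, while the REV-ERB proteins of Nr1d1 and Nr1d2 repress Arntl and Npas2 through ROR elements, so that Arntl transcripts and transcripts of its E-box targets peak at opposed hours of the day. Skeletal muscle has its own clock, which follows feeding and activity and drives daily rhythms of metabolic transcripts, and a single sample from an animal holds both the average level of a rhythmic transcript and its phase at that hour.

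The binding motifs of this circuit were looked for in the promoters of the genes, from 250 bases before to 50 after each RefSeq start on GRCm38.p6, on both strands. Of the 10 genes 9 had an entry, with 13 windows in all, and Per2 had none. The stretches of 5 genes that hold such a motif are printed, because motifs of these kinds link the loops. Capitals mark the E-box CACGTG in Per1 and Cry1, the D-box TTATGTAA in Per3, and the core of a ROR element, AGGTCA, in Arntl, Nr1d2 and, as its reverse complement TGACCT, Per1. The stretches lie at chr7:113207530-113207559 on the plus strand (Arntl), chr11:69098753-69098847 on the plus strand (Per1), chr4:151044786-151044900 on the minus strand (Per3), chr10:85185079-85185144 on the minus strand (Cry1) and chr14:18239148-18239213 on the minus strand (Nr1d2).
Arntl: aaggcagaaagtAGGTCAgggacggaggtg
Per1: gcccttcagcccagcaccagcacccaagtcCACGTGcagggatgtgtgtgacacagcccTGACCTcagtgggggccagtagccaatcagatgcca
Per3: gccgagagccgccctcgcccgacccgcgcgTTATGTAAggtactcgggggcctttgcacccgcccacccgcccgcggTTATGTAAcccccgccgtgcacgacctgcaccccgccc
Cry1: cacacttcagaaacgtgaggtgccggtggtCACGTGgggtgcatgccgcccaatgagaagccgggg
Nr1d2: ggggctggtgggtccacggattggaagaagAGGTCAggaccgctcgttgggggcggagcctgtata
The E-box was found in 2 of the 13 windows and in 7.15% of 32851 mouse promoters of the same length. The D-box, bound by DBP, TEF, HLF and NFIL3, was found in 1 window, that of Per3, at 2 places, and in 0.938% of all promoters. AGGTCA was found in 4 of the 13 windows, the fourth being 1 of the 3 of Clock, and in 16.3% of all promoters. The cAMP response element TGACGTCA was found in 0 of the 13 windows and in 1.79% of all promoters. These are matches of letters in short windows and do not show that a factor binds there.

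The libraries held 8250653 to 18968132 counts per mouse, and levels are given as CPM, the reads of a gene relative to the TMM-normalised size of its library. All 9 muscle fibre markers were detected in every group, with summed levels of 136742 to 158836 CPM at 3 mo. At 19 mo the sums ran from 104523 to 155150 CPM in wild-type and from 83339 to 136822 CPM in V338Y mice. Between the genotypes at 19 mo 0 of the 9 passed in edgeR. Summed macrophage markers ran from 123 to 179 CPM at 3 mo and from 175 to 268 CPM at 19 mo, and summed endothelial markers from 148 to 187 CPM and from 201 to 334 CPM. Summed Schwann cell markers ran from 38.2 to 51.7 CPM at 3 mo and from 49.7 to 102 CPM at 19 mo. For fibroblast markers the sums were 1013 to 1524 CPM and 663 to 1463 CPM. Erythroid markers summed to 138 to 287 CPM at 3 mo. At 19 mo they summed to 85.8 to 133 CPM in wild-type and 142 to 706 CPM in V338Y mice, with 0 of 4 passing between the genotypes in edgeR. Neutrophil markers, with Ngp and Ltf at 0 in both 3 mo groups, summed to at most 2.78 CPM at 3 mo, to 2.81 to 5.62 CPM in 19 mo wild-type mice and to as much as 576 CPM in a 19 mo V338Y mouse. In V338Y mice 6 of 6 neutrophil markers rose with age in edgeR, where 24.4% of all genes tested rose. In wild-type mice 0 of the 3 tested passed. Only 3 of the 6 had enough counts to be tested between the genotypes at 3 mo. The others entered the V338Y age test only through the 19 mo mice, where they are high, and the median sum in those mice was 16.9 CPM. Of 7 adipocyte markers 2 fell with age in wild-type mice, where 17.8% of all genes fell, and 3 rose in V338Y mice, where 24.4% rose. Between the genotypes 0 of the 7 passed at either age. Their summed levels overlapped, running from 206 to 1136 CPM at 3 mo and from 156 to 942 CPM at 19 mo. The part of these cell types in the clock values was not tested, and in bulk muscle fewer cells of a type and less RNA per cell cannot be told apart. Transcripts of Mrps5, the mutated gene, were at 14.9 to 27.5 CPM over all mice, and since the mutation is an amino acid exchange their level does not check the genotype. At 19 mo Xist ran from 506 to 631 CPM and at 3 mo it did not exceed 0.574 CPM, whereas the Y-linked Ddx3y ran from 163 to 202 CPM at 3 mo and did not exceed 0.0826 CPM at 19 mo. The methods describe the 3 mo mice as female, and these transcripts go against that in all 8 of them. Age, sex-chromosome transcripts and any difference in the hour of sampling cannot be told apart in the age comparisons below, and no age value could be computed within 1 sex.

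The largest differences within the clock were between the ages. At 19 mo the activators Arntl, Npas2 and, by less, Clock and the repressors Per1 and Nr1d1 were higher in both genotypes, while Per2, Per3 and Nr1d2 were lower. Cry1 was higher by about as much as Clock but passed the test only in V338Y mice. In wild-type mice 8 of the 10 genes differed between 3 and 19 mo, 5 up-regulated and 3 down-regulated, at an adjusted p under 0.05 in edgeR's quasi-likelihood test with Benjamini-Hochberg adjustment over all genes tested. In V338Y mice 9 of 10 differed, 6 up-regulated and 3 down-regulated. The same threshold was passed by 36.2% of all 13657 genes tested in wild-type mice (18.3% up-regulated and 17.8% down-regulated) and by 46.9% of 13868 genes in V338Y mice (24.4% up-regulated and 22.5% down-regulated). For the 10 genes together the log2 fold changes had a median of 0.38 (wild-type) and 0.44 (V338Y), beside 0.02 and 0.07 over all genes tested. Npas2 passed the filter on low counts only through the 19 mo mice, where it is high, and without it 7 of 9 genes in wild-type and 8 of 9 in V338Y mice differed, with medians of 0.36 and 0.40. The comparisons in the 2 genotypes share no mouse.

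The values of the single mice did not overlap between the ages for 9 of the 10 genes in wild-type mice, where 43.4% of all genes tested did not overlap, and for 6 of 10 in V338Y mice, where the share was 42.2%. With the genotypes put together, all 7 mice at 19 mo lay above all 8 mice at 3 mo for Arntl and Npas2 and below them for Per2, Per3 and Nr1d2. The other 5 genes overlapped between the ages. Of all 14128 genes tested in the fit of the 4 groups, 23.9% did not overlap between all 3 mo and all 19 mo mice. Each of these counts of clock genes includes Npas2, which passed the filter only through the 19 mo mice, where it is high.

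**Figure D1:**
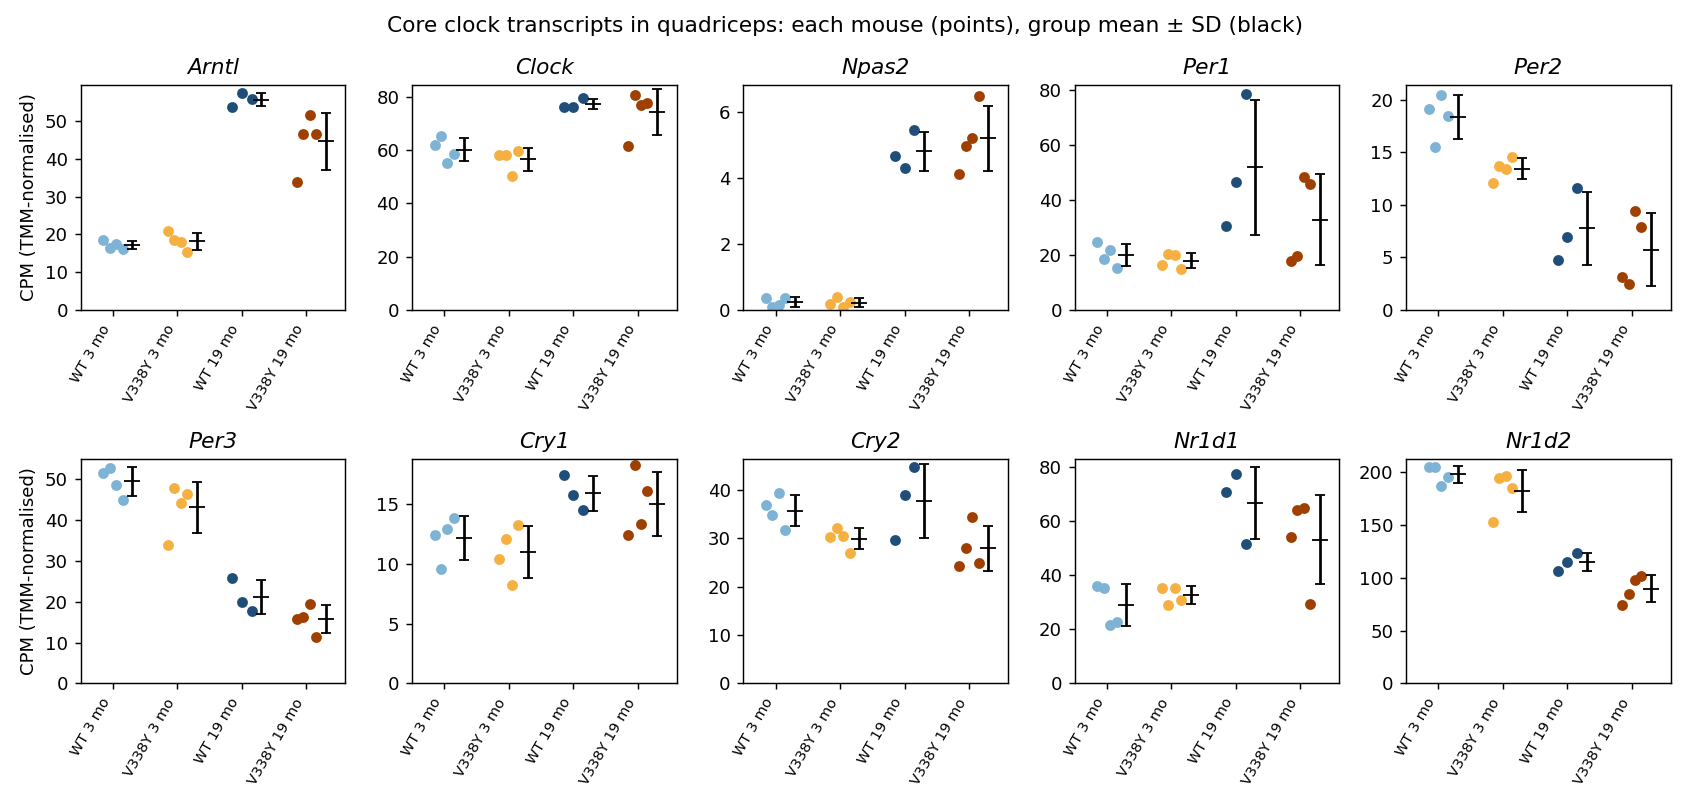
Levels of the 10 core clock transcripts in quadriceps, in CPM after TMM normalisation on the vertical axis, for the 4 groups on the horizontal axis. Each point is a mouse, and the black mark and bar give the group mean ± SD (n = 4, or 3 in 19 mo wild-type). Arntl and Npas2 stand higher at 19 mo and Per2, Per3 and Nr1d2 lower, with no overlap between the ages.

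Among the activators, Arntl encodes BMAL1, the partner that CLOCK and NPAS2 share (chr7:113207465-113314126 on GRCm38, as are the gene positions that follow). Arntl was at 18.4, 16.4, 17.4 and 16.03 CPM in the 4 wild-type mice at 3 mo and at 53.8, 57.4 and 55.9 CPM in the 3 at 19 mo. In V338Y mice it was at 21.0, 18.4, 17.9 and 15.4 CPM at 3 mo and 33.9, 46.6, 51.6 and 46.5 CPM at 19 mo. The 3 mo mice formed 1 narrow band in both genotypes, and every 19 mo mouse was above it, the lowest being a V338Y mouse. The log2 fold change with age was 1.71 ± 0.087 (SE, 3.27-fold, adjusted p = 1.29e-05 by edgeR) in wild-type and 1.31 ± 0.14 (2.48-fold, adjusted p = 1.71e-04) in V338Y mice. At 19 mo the 4 V338Y mice were all below the 3 wild-type mice, and the order of group means was 55.7 ± 1.8 (SD, n = 3) in wild-type, 44.7 ± 7.56 (n = 4) in V338Y, and then the 3 mo groups at 18.2 ± 2.27 and 17.1 ± 1.05 CPM (n = 4 each), which overlapped.

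Clock encodes the histone acetyltransferase that pairs with BMAL1 (chr5:76209868-76304792). It was at 61.9, 65.2, 55.01 and 58.6 CPM in wild-type mice at 3 mo and 76.1, 76.2 and 79.5 CPM at 19 mo, and at 58.2, 58.3, 50.2 and 59.9 CPM at 3 mo and 61.6, 80.9, 76.9 and 77.7 CPM at 19 mo in V338Y mice. All but 1 of the 19 mo mice were above all 3 mo mice, the exception being a V338Y mouse. The rise was small, at log2 0.36 ± 0.085 (1.29-fold, edgeR adjusted p = 0.0102) in wild-type and 0.40 ± 0.11 (1.32-fold, adjusted p = 0.0115) in V338Y mice.

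Npas2 encodes the paralog that can replace CLOCK (chr1:39193731-39363236), and its transcript was close to the limit of detection at 3 mo. The reads assigned to it were 4, 1, 2 and 4 in the 3 mo wild-type mice and 3, 4, 1 and 2 in the 3 mo V338Y mice. At 19 mo they were 75, 58 and 66 in wild-type and 41, 74, 52 and 101 in V338Y mice, or 4.66, 4.29 and 5.45 CPM in the former and 4.10, 4.96, 5.21 and 6.49 CPM in the latter. The ages were far apart in both genotypes, and within an age the genotypes overlapped. The fitted log2 fold change was 4.40 ± 0.38 (edgeR adjusted p = 1.08e-04) in wild-type and 4.60 ± 0.34 (adjusted p = 3.33e-05) in V338Y mice, with 95% intervals from 3.56 to 5.25 and from 3.83 to 5.37. Since Npas2 entered these tests only through the 19 mo mice, it was also tested with no filter, where the edgeR adjusted p for age was 3.80e-07 (wild-type) and 1.34e-06 (V338Y). It was not tested between the genotypes at 3 mo. Relative to Clock, Npas2 stood 6.39 ± 0.34 log2 units lower in 3 mo wild-type mice and 3.88 ± 0.13 log2 units lower at 19 mo (SD, n = 4 and 3, log2 of CPM + 0.5). In the 3 mo wild-type mice Npas2 was at 0.0709 to 0.364 CPM, below the 0.5 that was added. The 3 mo distance and its SD are therefore set largely by the added 0.5 and understate the distance.

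The period genes, whose products inhibit the activator pair, moved in opposed directions. Per1 (chr11:69095217-69109960), which also answers glucocorticoid and cAMP signals directly, was at 24.5, 18.5, 21.8 and 15.1 CPM in wild-type mice at 3 mo and 30.4, 46.5 and 78.6 CPM at 19 mo. In V338Y mice it was at 16.1, 20.3, 20.1 and 14.97 CPM at 3 mo and 17.6, 19.5, 48.2 and 45.9 CPM at 19 mo. At 19 mo the mice of each genotype were widely spread, with 2 of the V338Y mice inside the 3 mo range and the other 2 far above it. The log2 fold change was 1.37 ± 0.29 (2.59-fold, edgeR adjusted p = 0.00644) in wild-type and 0.89 ± 0.32 (1.85-fold, adjusted p = 0.0457) in V338Y mice. The V338Y call for Per1 did not hold without any 1 of the 19 mo mice 4 and 5 or the 3 mo mice 1, 2, 3 and 4, where the adjusted p lay between 0.0723 and 0.124.

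Per2 (chr1:91415982-91459324), the period gene whose loss shortens and then abolishes behavioural rhythms, was at 19.1, 15.5, 20.5 and 18.4 CPM in 3 mo wild-type and 4.72, 6.95 and 11.6 CPM in 19 mo wild-type mice. In V338Y mice Per2 was at 12.1, 13.7, 13.4 and 14.5 CPM at 3 mo and 3.10, 2.41, 9.43 and 7.84 CPM at 19 mo. Every 19 mo mouse was below every 3 mo mouse, and the 19 mo mice differed among themselves by several-fold. Per2 fell by 1.26 ± 0.26 on the log2 scale in wild-type (edgeR adjusted p = 0.00579) and fell by 1.22 ± 0.37 in V338Y mice (adjusted p = 0.0209).

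Per3 (chr4:151003652-151044665), the third period gene, was at 51.5, 52.9, 48.7 and 44.9 CPM in 3 mo and 25.9, 20.03 and 17.8 CPM in 19 mo wild-type mice, and at 34.0, 48.0, 44.3 and 46.4 CPM at 3 mo and 15.8, 16.4, 19.6 and 11.4 CPM at 19 mo in V338Y mice. The ages were clearly apart, and mouse 1 of the 3 mo V338Y group was the lowest of the young animals. Per3 fell by 1.21 ± 0.13 on the log2 scale in wild-type (edgeR adjusted p = 3.63e-04) and fell by 1.44 ± 0.17 in V338Y mice (adjusted p = 2.71e-04).

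Within single mice Per1 and Per2 lay farther apart at 19 mo than at 3 mo. The log2 difference of Per1 minus Per2 at 3 mo was 0.10 ± 0.27 for wild-type and 0.39 ± 0.24 for V338Y mice (SD, n = 4 each). At 19 mo it was 2.64 ± 0.07 in wild-type (n = 3) and 2.47 ± 0.22 in V338Y mice (n = 4). Thus at 19 mo the distance between the 2 transcripts varied little although each of them varied with a coefficient of variation of 45.1 to 60.8% within its group.

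The products of the cryptochrome genes are the strongest inhibitors of the activator pair. Cry1 differed with age by about as much as Clock, and Cry2 differed little. Cry1 (chr10:85131700-85185064) was at 12.4, 9.57, 12.9 and 13.9 CPM in 3 mo and 17.5, 15.7 and 14.5 CPM in 19 mo wild-type mice, and at 10.4, 12.1, 8.26 and 13.2 CPM at 3 mo and 12.4, 18.3, 13.3 and 16.1 CPM at 19 mo in V338Y mice. The groups of V338Y mice overlapped, and those of wild-type mice lay side by side without overlap. The log2 difference was 0.39 ± 0.14 in wild-type (95% interval 0.08 to 0.70, edgeR adjusted p = 0.0530) and 0.47 ± 0.17 in V338Y mice (adjusted p = 0.0406). The V338Y call for Cry1 was lost without the 19 mo mice 3 or 5 or the 3 mo mice 1, 2 or 3, with edgeR adjusted p of 0.0565 to 0.112, while the wild-type value passed without 3 mo mouse 4 (adjusted p = 0.0499).

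Cry2 (chr2:92403646-92434043) was at 37.0, 34.9, 39.4 and 31.7 CPM in 3 mo and 29.6, 39.0 and 44.7 CPM in 19 mo wild-type mice, and at 30.2, 32.2, 30.4 and 26.9 CPM at 3 mo and 24.3, 28.0, 34.5 and 24.9 CPM at 19 mo in V338Y mice. All 4 groups overlapped with their neighbours in the order of means. Its log2 difference with age was 0.08 (95% interval -0.24 to 0.40, edgeR adjusted p = 0.691) in wild-type and -0.09 (-0.37 to 0.19, adjusted p = 0.578) in V338Y mice, and the wild-type interval includes the difference measured for Clock.

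The REV-ERB genes, whose products close the second loop by repressing Arntl, also moved in opposed directions. Nr1d1 (chr11:98767932-98775333) was at 36.0, 35.4, 21.7 and 22.7 CPM in 3 mo and 71.0, 77.7 and 51.8 CPM in 19 mo wild-type mice, and at 35.5, 28.9, 35.5 and 30.9 CPM at 3 mo and 54.1, 64.1, 64.9 and 29.6 CPM at 19 mo in V338Y mice. All 19 mo mice but mouse 5 of the V338Y group lay above the 3 mo range. The log2 fold change was 1.21 ± 0.21 (2.31-fold, edgeR adjusted p = 0.00278) in wild-type and 0.71 ± 0.22 (1.64-fold, adjusted p = 0.0235) in V338Y mice. The V338Y call for Nr1d1 was lost without the 19 mo mice 3 or 4 or the 3 mo mice 2 or 4, with edgeR adjusted p of 0.0577 to 0.0648.

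Of the 3077 exonic bases of Nr1d1, 263 are shared with Thra on the opposite strand, and whether the counting used strand is not given in the sources used here. Thra, a thyroid hormone receptor gene, was at 29.0 to 35.7 CPM in 3 mo and 36.4 to 41.5 CPM in 19 mo wild-type mice. Its log2 difference with age was 0.31 ± 0.10 (edgeR adjusted p = 0.0408) in wild-type and 0.21 ± 0.15 (adjusted p = 0.290) in V338Y mice, and its part in the Nr1d1 values was not tested.

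Nr1d2 (chr14:18204054-18239127), the second REV-ERB gene, was at 205, 204, 187 and 195 CPM in 3 mo and 107, 115 and 123 CPM in 19 mo wild-type mice. In V338Y mice it was at 153, 194, 196 and 185 CPM at 3 mo and 74.7, 84.8, 98.1 and 102 CPM at 19 mo. Each 19 mo mouse was below each 3 mo mouse, and among the 19 mo mice all V338Y mice were below all wild-type mice. Nr1d2 fell by 0.78 ± 0.087 on the log2 scale in wild-type (edgeR adjusted p = 3.99e-04) and fell by 1.01 ± 0.13 in V338Y mice (adjusted p = 3.54e-04).

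Divided by exon length, to compare levels between genes, Nr1d2 was the most abundant of the 10 at 3 mo, with 36.6 ± 1.54 CPM per kb in wild-type mice (SD, n = 4). Nr1d1 came next at 9.42 ± 2.53 CPM per kb and Npas2 last at 0.0485 ± 0.032 CPM per kb. At 19 mo Nr1d1 and Nr1d2 were on a like level in wild-type mice, at 21.7 ± 4.37 and 21.3 ± 1.54 CPM per kb (n = 3), followed by Per1 at 9.20 ± 4.36 and Arntl at 7.41 ± 0.24 CPM per kb. Per2, at 1.32 ± 0.60 CPM per kb, and Npas2, at 1.002 ± 0.12 CPM per kb, were the lowest of the 10 in those mice.

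**Figure D2:**
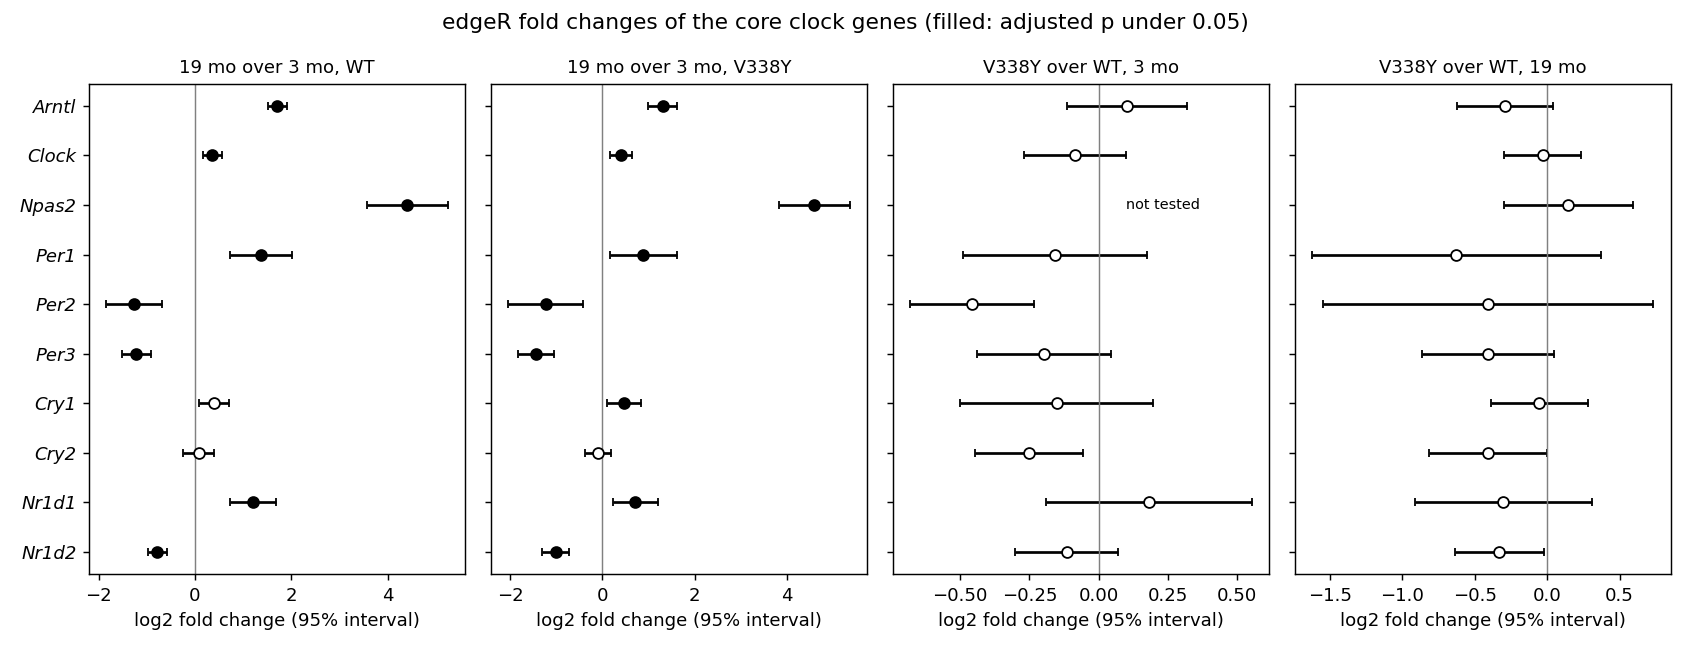
Log2 fold changes of the 10 genes (rows) from edgeR in the 4 comparisons (panels, each with its own horizontal scale), with 95% intervals. Filled points passed an adjusted p of 0.05. All filled points lie in the 2 age panels, where Npas2 reaches 4.40 and 4.60, and in the genotype panels 0 points are filled.

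To describe the relation between activators and repressors, the log2 levels (CPM + 0.5) were subtracted within each mouse. Arntl minus Nr1d2 at 3 mo was -3.50 ± 0.10 for wild-type and -3.29 ± 0.31 for V338Y mice, and -1.04 ± 0.09 and -1.01 ± 0.14 at 19 mo (SD, n = 3 for 19 mo wild-type and 4 for the other groups). Arntl minus Per3 went from -1.51 ± 0.10 and -1.22 ± 0.38 at 3 mo to 1.39 ± 0.30 and 1.48 ± 0.38 at 19 mo, so that Arntl was the lower of the pair in every 3 mo mouse and the higher in every 19 mo mouse. Arntl minus Per2 was -0.10 ± 0.14 and 0.42 ± 0.28 at 3 mo and 2.85 ± 0.59 and 3.04 ± 0.76 at 19 mo.

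Nr1d1 did not part from Arntl in this way. Arntl minus Nr1d1 was -0.71 ± 0.37 and -0.83 ± 0.17 at 3 mo and -0.24 ± 0.30 and -0.20 ± 0.58 at 19 mo in wild-type and V338Y mice. The 2 REV-ERB transcripts drew closer, with Nr1d1 minus Nr1d2 at -2.79 ± 0.33 and -2.46 ± 0.27 at 3 mo and -0.80 ± 0.39 and -0.80 ± 0.64 at 19 mo. Cry1 minus Cry2 was -1.52 ± 0.27 and -1.42 ± 0.34 at 3 mo, and -1.20 ± 0.43 and -0.87 ± 0.35 at 19 mo. The repressors did not stand on 1 side of Arntl: Per2, Per3 and Nr1d2 fell where Arntl rose, and Per1 and Nr1d1 rose with it.

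**Figure D3:**
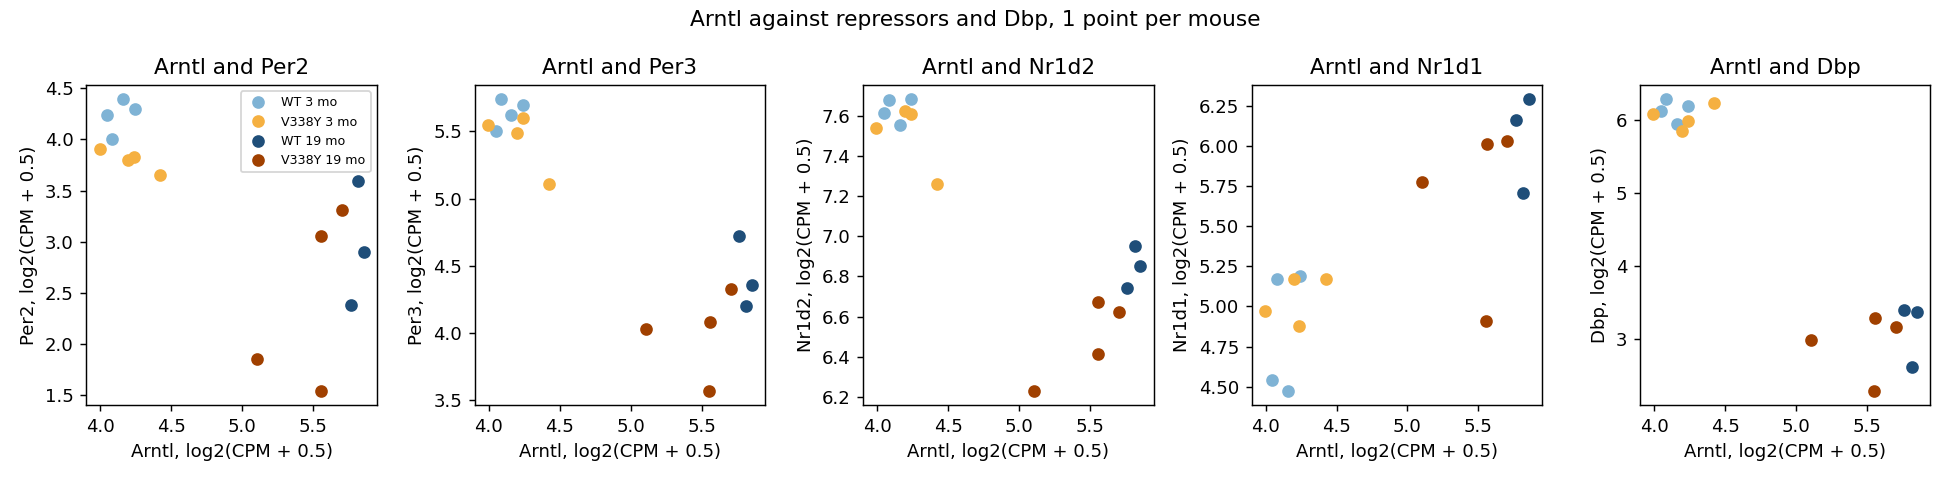
Level of Arntl (horizontal axis) against Per2, Per3, Nr1d2, Nr1d1 and Dbp (vertical axes), in log2 of CPM + 0.5, with 1 point per mouse and colours for the 4 groups. The 19 mo mice lie to the right and below the 3 mo mice for Per2, Per3, Nr1d2 and Dbp, and to the right and mostly above them for Nr1d1.

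Across mice of 1 age, with both genotypes together, all 45 pairs of the 10 genes were correlated at each age, which makes 90 relations. None reached an adjusted p under 0.05 by the exact permutation test, either by Pearson's r or by Spearman's rho. Unadjusted, 3 pairs at 3 mo (n = 8) and 9 at 19 mo (n = 7) had a Pearson p under 0.05. The closest pair was Per1 and Per2 at 19 mo (r = 0.970, exact permutation p = 0.0016, adjusted p = 0.125; rho = 0.929, p = 0.0067, adjusted p = 0.304). Without the 2 mice farthest from the median of Per1, r was 0.940. Arntl and Nr1d2 at 19 mo had r = 0.904 (exact permutation p = 0.0028, adjusted p = 0.125; rho = 0.857, p = 0.0238, adjusted p = 0.357), and r = 0.799 without the 2 mice farthest from the median of Arntl. This r includes the difference between the genotypes, which did not overlap at 19 mo for either gene. With group means taken out r was 0.30 over the 15 mice, which also include those at 3 mo. Across the 3 mo mice alone, with group means left in, r was -0.594 (n = 8), and 0.003 without the 2 mice farthest from the median of Arntl. The value of 0.30 therefore does not show how much of the 19 mo r comes from the genotypes. A group of 3 or 4 mice was too small for a correlation within 1 genotype.

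At 3 mo, 0 of the 9 genes tested differed between V338Y and wild-type mice by edgeR's adjusted p, where 0.075% of all 13333 genes tested passed. DESeq2 also called 0 of them. At an unadjusted p under 0.05 there were 2 in edgeR, Per2 and Cry2, beside 9.7% of all genes. Per2 was at 12.1, 13.7, 13.4 and 14.5 CPM in V338Y and 19.1, 15.5, 20.5 and 18.4 CPM in wild-type mice, and it was the 1 gene of the 10 whose groups did not overlap, where 4.71% of all genes did not. Per2 was lower in V338Y mice by a log2 difference of -0.46 ± 0.10 (95% interval -0.68 to -0.23, edgeR adjusted p = 0.209). For Cry2 the difference was -0.25 ± 0.089 (95% interval -0.45 to -0.06, adjusted p = 0.431), with 3 of the 4 V338Y mice below all wild-type mice. For the other 7 genes the differences lay between -0.20 for Per3 and 0.18 for Nr1d1, and the 95% intervals of all 7 included 0.

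At 19 mo, 0 of the 10 genes differed between the genotypes by edgeR's adjusted p, where 0.0434% of 13833 genes (6 genes) passed. In a fit with mouse numbers as a replicate block 0 of the 10 passed, where 110 of all genes did. The median of the 10 differences was -0.32 on the log2 scale, with V338Y lower, beside 0.01 over all genes. Over the 11 loop partners described below the median was -0.36, so that this lean was not particular to the 10. DESeq2 also called 0 of the 10. At an unadjusted p under 0.05 there were 2 in edgeR, Cry2 and Nr1d2, beside 8.93% of all genes. The difference was -0.41 ± 0.18 for Cry2 (edgeR adjusted p = 0.557) and -0.33 ± 0.13 for Nr1d2 (adjusted p = 0.544). Groups did not overlap for 2 genes, Arntl and Nr1d2, where 9.78% of all genes did not. Arntl differed by -0.29 ± 0.14 (95% interval -0.62 to 0.04, adjusted p = 0.579). The intervals were widest for Per1 (-1.63 to 0.37) and Per2 (-1.55 to 0.73).

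The difference between the genotypes in their age effect was tested as the interaction in a fit of all 15 mice. Of the 10 genes 0 passed an adjusted p of 0.05 in edgeR, as did 0% of all 14128 genes tested, DESeq2 called 0 of the 10 (and 26 of all genes), and 1 had an unadjusted p under 0.05 beside 9.63% of all genes. That gene was Arntl, with a smaller rise in V338Y mice by a log2 difference of -0.41 ± 0.17 (95% interval -0.78 to -0.04, adjusted p = 0.484). For Nr1d1 the interaction was -0.51 ± 0.33 (95% interval -1.22 to 0.20, adjusted p = 0.634) and for Per1 -0.50 ± 0.48 (-1.52 to 0.53, adjusted p = 0.760).

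The 19 mo mice carry numbers in their labels, and wild-type and V338Y mice have the numbers 2, 4 and 5 in common. Among these, the same number was lowest in both genotypes for 8 of the 10 genes and highest for 5 of 10, where 45.3% and 45.8% of all 13833 genes tested at 19 mo had the same number lowest and highest. In genes singled out after their values were seen, mouse 2 was the lowest of the 3 numbers for Per1, at 30.4 CPM in wild-type and 17.6 CPM in V338Y, and for Per2, at 4.72 and 3.10 CPM. Mouse 5 was the lowest for Nr1d1, at 51.8 and 29.6 CPM, and for Per3, at 17.8 and 11.4 CPM. V338Y was the lower of the pair for all 3 numbers in Arntl, Per3, Cry2, Nr1d1 and Nr1d2, which is 5 of 10 beside 25.3% of all genes. The labels do not say what a number stands for.

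**Figure D4:**
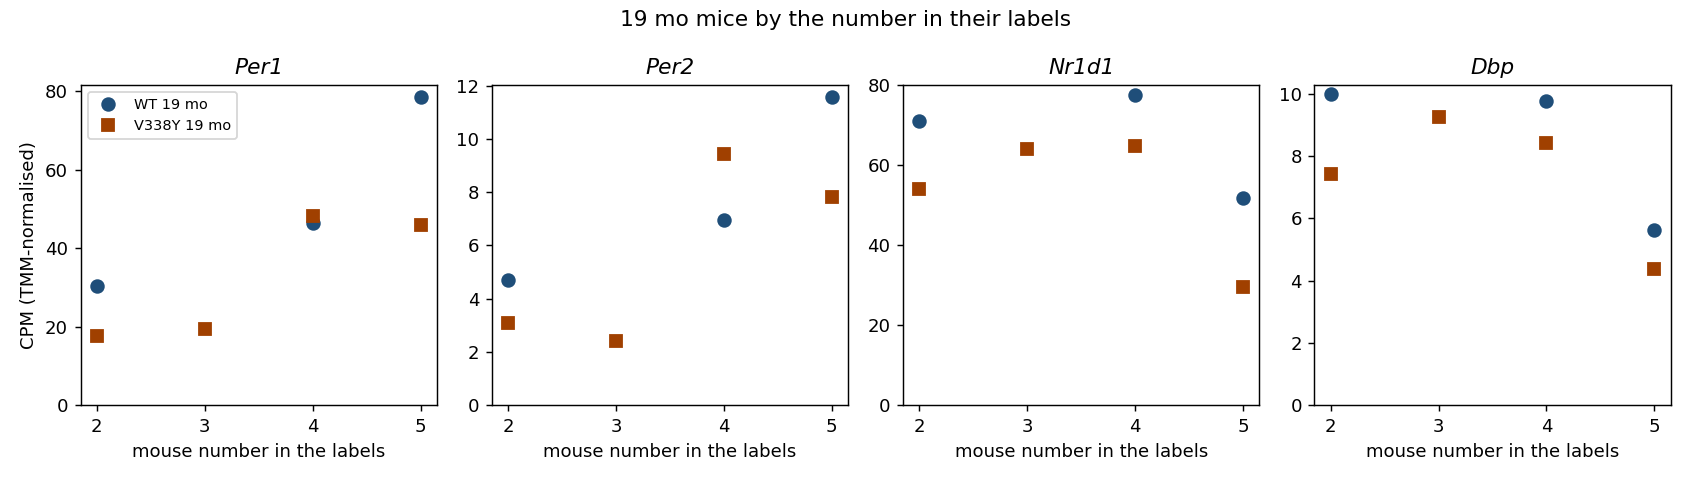
Levels in CPM of Per1, Per2, Nr1d1 and Dbp in the 19 mo mice (vertical axis, from 0) by the number in their labels (horizontal axis), with circles for wild-type and squares for V338Y mice. Mouse 2 is the lowest of the numbers 2, 4 and 5 for Per1 and Per2, and mouse 5 for Nr1d1 and Dbp, in both genotypes.

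Of 11 loop partners, the factors that act beside the 10 genes at E-boxes, D-boxes and ROR elements, 7 differed with age in wild-type mice (2 up-regulated, 5 down-regulated) and 7 in V338Y mice (1 up-regulated, 6 down-regulated). Of all genes tested 36.2% and 46.9% differed with age in the same tests. Over the 11 the median log2 fold change was -0.34 (wild-type) and -0.65 (V338Y), beside 0.02 and 0.07 over all genes. Dbp, an activator at D-boxes whose transcription follows BMAL1 and CLOCK closely, was at 73.2, 77.6, 61.4 and 69.2 CPM in 3 mo and 10.00, 9.76 and 5.62 CPM in 19 mo wild-type mice, and at 75.04, 63.2, 57.4 and 67.8 CPM at 3 mo and 7.41, 9.25, 8.42 and 4.37 CPM at 19 mo in V338Y mice. The ages did not come near each other in either genotype. Dbp fell by 3.04 ± 0.19 on the log2 scale in wild-type (edgeR adjusted p = 3.72e-05) and fell by 3.15 ± 0.21 in V338Y mice (adjusted p = 1.82e-05).

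Ciart, which encodes an inhibitor of the BMAL1 and CLOCK pair, ran from 3.90 to 8.75 CPM at 3 mo and from 0.385 to 1.57 CPM at 19 mo. It fell by 2.48 ± 0.34 on the log2 scale in wild-type (edgeR adjusted p = 9.23e-04) and fell by 3.61 ± 0.30 in V338Y mice (adjusted p = 5.81e-05). With 6 to 9 counts in the 19 mo V338Y mice, Ciart entered the V338Y test only through the 3 mo mice, where it is high. Tef, which encodes a relative of DBP, had log2 fold changes of -0.86 and -1.23 in wild-type and V338Y mice, and Hlf, another relative, of -0.59 and -1.003, all past the threshold. Nfil3, whose product represses at D-boxes, rose in wild-type mice (log2 fold change 0.73, adjusted p = 0.00432 by edgeR) and was at 0.66 in V338Y mice (adjusted p = 0.0503). Bhlhe41, whose product competes at E-boxes, fell by 0.89 in V338Y mice and was at -0.47 in wild-type mice (adjusted p = 0.105). The remaining calls, named after their values were seen, were Rora, which fell in both genotypes, Bhlhe40, which rose in wild-type mice, and Rorb, which rose in V338Y mice. With 6 to 11 counts in the 3 mo V338Y mice, too few to pass the filter there, Rorb entered that test only through the 19 mo mice. Within mice, Arntl minus Dbp was -2.01 ± 0.17 and -1.83 ± 0.19 at 3 mo and 2.69 ± 0.45 and 2.55 ± 0.51 at 19 mo in wild-type and V338Y mice.

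Of 26 genes for turnover and modification of clock proteins, 25 were tested, and 5 rose and 3 fell in wild-type mice, 4 rose and 4 fell in V338Y mice, a share below the 36.2% and 46.9% of all genes. Kmt2a, a histone methyltransferase, had log2 fold changes of 1.44 and 1.47 in wild-type and V338Y mice, and the acetyltransferase genes Crebbp (1.39 and 1.37) and Ep300 (1.28 and 1.40) were close to it. Hdac3, the deacetylase that REV-ERB proteins recruit, fell by 0.41 in wild-type and fell by 0.70 in V338Y mice. The kinase genes for PER proteins, Csnk1d and Csnk1e, named after their values were seen, had log2 fold changes of -0.08 and -0.0020 in wild-type and -0.02 and -0.18 in V338Y mice and did not pass the test. Of 17 transcripts known to be rhythmic in muscle, 3 rose and 6 fell in wild-type mice and 3 rose and 5 fell in V338Y mice, beside the same 36.2% and 46.9% of all genes. Among those that fell in both genotypes, Coq10b had log2 fold changes of -1.74 and -1.58 in wild-type and V338Y mice, and Tcap, which encodes a protein of the Z-disc, of -1.10 and -1.61. Gpcpd1 had -0.83 and -1.44, and Nampt, the rate-limiting enzyme of NAD salvage, -0.78 and -0.85. Tbc1d1, a regulator of glucose uptake, rose by log2 1.26 and 1.34. In all 3 lists 0 genes passed between the genotypes at either age or for the interaction.

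**Figure D5:**
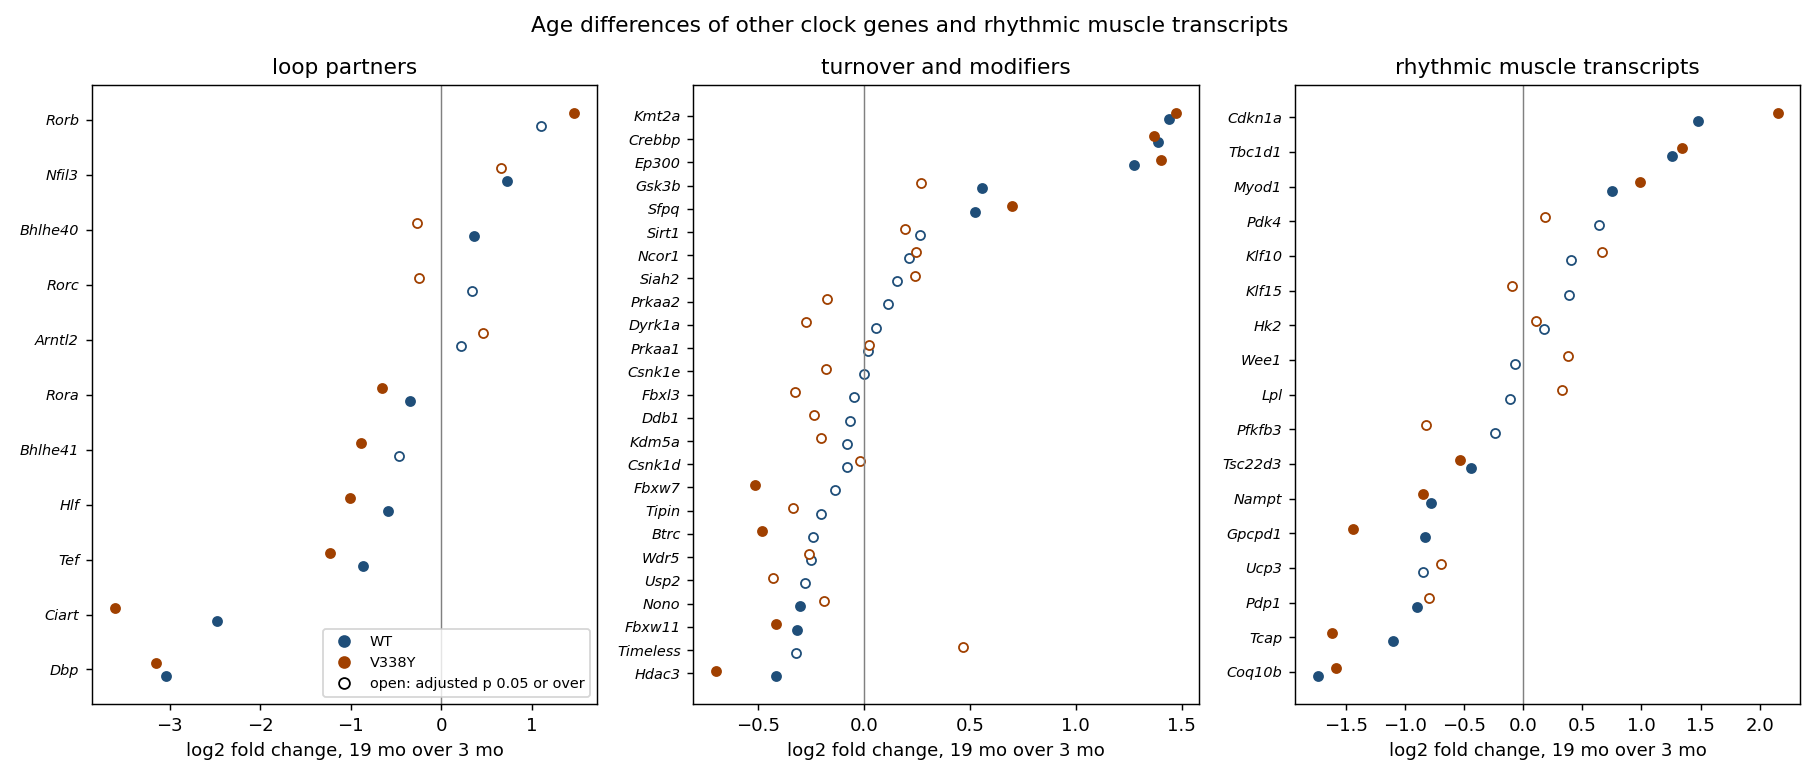
Log2 fold changes from 3 to 19 mo (horizontal axes) of the loop partners, the turnover and modifier genes and the rhythmic muscle transcripts (rows), in wild-type (blue) and V338Y mice (brown), with filled points for an edgeR adjusted p under 0.05. Dbp and Ciart lie farthest to the left among the loop partners, Kmt2a, Crebbp and Ep300 to the right among the modifiers, and Cdkn1a farthest to the right among the rhythmic transcripts.

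To name the genes whose pattern over single mice was most like that of Arntl and of Nr1d1, the group means were taken out and log2 levels were correlated over the 15 mice among 12824 genes with a mean of at least 1 CPM. For Arntl, Pearson's r was highest for Dok3 (0.90), Slf2 (0.87), Dhx38 (0.85), Dusp13 (0.85) and Adcy9 (0.84) and lowest for Cercam (-0.86), Serpini1 (-0.85), 1110059G10Rik (-0.84), Mospd2 (-0.81) and Gid8 (-0.80). Among the clock genes, Arntl was closest to Rora (0.61), Nfil3 (0.61), Cry2 (0.58) and Per1 (0.56), and with Nr1d1 it had 0.13. For Nr1d1, r was highest for Siae (0.91), Ube2q2 (0.91), Pcdh7 (0.90), Arhgap32 (0.89) and Nhsl1 (0.88) and lowest for Apba3 (-0.91), Polr3d (-0.90), Rbm19 (-0.90), Hdhd5 (-0.90) and Dazap1 (-0.89). Dbp was at rank 15 from the top with Nr1d1 (0.84), and Hlf had 0.68 and Per3 0.61. These values describe likeness over 15 mice that share their normalisation, and with so many genes the ends of such a ranking can be high without any relation between the genes.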

How the data were processed

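Libraries of a stranded mRNA kit were sequenced from the quadriceps of 15 mice. With RSEM the authors estimated how many reads belong to each Ensembl gene, and the deposited values are these expected counts, as whole numbers and not scaled for depth or length. How the estimates were rounded, and whether strand was used, is not given in the sources used here. RSEM divides reads that match several genes between them. The submitters' processing notes name STAR 2.4.2a, bcl2fastq 1.8.4 and CASAVA 1.8 and the mouse build GRCm38, while the methods name an older mouse build. Positions and exon lengths were taken from a GENCODE annotation of GRCm38, and promoters from RefSeq on GRCm38.p6. Genes were matched by Ensembl identifier, and 37607 of 39179 had a symbol.

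Mice were grouped by the genotype and age in their labels, which give no batch or date. A gene was tested if 50% or more of the mice in either group had 10 or more counts, which is the filter in the methods. Counts were normalised by TMM and compared with edgeR 4.0.16 (R 4.3.3) by its quasi-likelihood test, fitted to the compared groups or, for the interaction, to all 15 mice, with Benjamini-Hochberg adjustment over all genes tested and a threshold of 0.05. Standard errors and 95% intervals come from the same fit. Single relations between genes were tested by exact two-sided permutation over all pairings, a procedure checked against scipy 1.17.1 on random values. Precision depends on the totals of 8250653 to 18968132 counts per mouse and on the spread between mice. The 95% intervals are for the log2 fold change between groups and do not give the range of single mice. Simulated counts with 200 changed genes were used to test the main edgeR fit of each comparison.

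The 10 genes and the gene lists were chosen with earlier results of these data known. The text names the 10 genes, up to 5 genes per list and comparison with the smallest adjusted p, the 5 genes at each end of the likeness to Arntl and Nr1d1, and Mrps5, Xist, Ddx3y and Thra as checks, and says where it names others. Alternatives were RLE and upper-quartile normalisation, DESeq2 1.42.0, no filter, filterByExpr, a replicate block, a fit of all 15 mice, other pseudocounts than 0.5, and each mouse left out. Mouse numbers recur between groups. Deviations of same-numbered mice from their group means were correlated at 0.135 to 0.338 in all 3 pairs between the genotypes at 19 mo, which by the rule used (each over 0.1) pairs them, although mice of different numbers ran from -0.312 to 0.360 and the labels do not say what a number means. In the other comparisons at least 1 pair was below 0.1.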

Additional observations from a re-analysis of the deposited data

How the results depend on the processing

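Of the 10 clock genes, 7 to 9 passed with age in wild-type mice and 6 to 9 in V338Y mice under the alternatives run, and 0 passed for genotype at either age or for the interaction under any of them. RLE size factors left the CPM means within 1.09%. Leaving out 1 mouse gave 8 to 9 in wild-type and 6 to 9 in V338Y mice, where Per1, Cry1 and Nr1d1 were the calls lost. Cry1 in V338Y mice was also lost with RLE size factors (edgeR adjusted p = 0.05004) and with no filter (0.0532), and Cry1 in wild-type mice was gained with filterByExpr (0.0485). In a fit with mouse numbers as a replicate block, 7 passed in wild-type mice (without Clock, adjusted p = 0.159) and 6 in V338Y mice (without Clock at 0.0596, Per1 at 0.274 and Cry1 at 0.175). Same-numbered mice of the 2 ages did not deviate together (correlations of -0.0409 to -0.0154 in wild-type and -0.131 to 0.0046 in V338Y mice), nor did those of the 2 genotypes at 3 mo (-0.203 to 0.0905). The block changed no call between the genotypes or for the interaction.

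Over the alternatives 734 fold changes of the 10 genes kept their direction and side of the threshold, 21 lost the call, 2 gained it and 18 turned sign, all 18 in values that had not passed and with 1 mouse left out. The log2 ranges without 1 mouse were -0.068 to 0.22 for Cry2 with age in wild-type mice, -0.061 to 0.047 for Clock and -0.15 to 0.025 for Cry1 between the genotypes at 19 mo, and, for the interaction, -0.024 to 0.13 for Clock, -0.10 to 0.59 for Npas2, -0.28 to 0.42 for Per2 and -0.040 to 0.18 for Cry1. Where a group was left with few mice, the fit assumed that they vary like the others.

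Counts over all genes moved more. With age in wild-type mice 4940 genes passed and 2229 with the block. Between the genotypes at 3 mo 10 passed, beside 66 with DESeq2, 33 with no filter and 3 to 14 without 1 mouse. At 19 mo 6 passed, beside 62 with DESeq2, 110 with the block, 14 with no filter and 2 to 7 without 1 mouse. For the interaction 0 passed, beside 26 with DESeq2, 28 with the block and 5 with no filter. With pseudocounts of 0.1 or 2, 0 pairs of clock genes passed the adjusted p at either age. Without the 2 farthest mice 0 pairs passed as well. With so few mice left the exact test could hardly pass after adjustment over 90 relations, so that count says little. Depth limits Npas2 at 3 mo, where a mouse had 1 to 4 counts, and Per1 and Per2 had the widest spread between mice at 19 mo, with coefficients of variation of 45.1 to 60.8% within a group.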
